A study of Mus musculus with 9 samples.

Results

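The liver genes described here encode 8 nuclear receptors, the ligand-activated transcription factor Ahr and the electron donor Por. The rule named them and set no threshold on measured values, and they are 10 of the 24341 genes in the deposited table. RNA was taken from the livers of 9 wild-type C57BL/6 mice 48 hours after treatment and sequenced from the 3′ end of each transcript. The 3 anti-CD40 mice (mice 2, 5 and 9) had been given FGK45, an antibody that activates CD40, and the 6 control mice (mice 3, 4, 7, 8, 11 and 12) are recorded as given PBS. According to the methods, mice were 8 to 12 weeks old unless stated otherwise and matched for sex, and anti-CD40 mice without the usual loss of B cells from the blood were left out of the study. The sex of these mice is not given in the sources used here. Levels are FPKM, that is fragments scaled to the length of the transcript and to the depth of the library, and a gene is called where limma gave a Benjamini-Hochberg adjusted p under 0.05 over the 13807 genes tested.

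Nuclear receptors are transcription factors that bind small lipophilic ligands and DNA. Nr1i2 (PXR) and Nr1i3 (CAR) sense drugs and other foreign compounds in hepatocytes and induce cytochrome P450 enzymes, transferases and transporters. Ppara drives fatty acid oxidation and ketone production in fasting, and all 3 of these receptors, like the thyroid hormone receptor Thrb, bind DNA in a complex with the retinoid X receptor Rxra. Nr5a2 (LRH-1) controls bile acid and cholesterol genes, Nr3c1 is the glucocorticoid receptor and Esr1 the estrogen receptor alpha. Ahr is not a nuclear receptor but a basic helix-loop-helix factor activated by aromatic compounds, and Por is the reductase that passes electrons from NADPH to the microsomal P450 enzymes.

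In the anti-CD40 mice, 4 of the 10 genes were called lower and none was called higher. Nr1i3 fell furthest, to 19.3% of control (95% interval 11.2 to 33.1%). Rxra stood at 59.7%, Thrb at 62.9% and Nr3c1 at 71.2% of control. The other 6 genes were not called, and their fitted levels lay between 65.6% (Nr1i2) and 84.4% (Ahr) of control. All 10 log2 fold changes were negative as deposited, with a median of -0.50 against 0.0056 over all genes tested. Over the whole table, 45.1% of genes were called, 21.7% lower and 23.5% higher, so 4 of 10 is close to the share of all genes that changed. In 4 of the 10 genes no anti-CD40 mouse reached the control range, against 42.4% of all genes tested (19.6% lower and 22.7% higher in the anti-CD40 mice). The exact 2-sided permutation p was 0.0238 for each of the 4 called genes and between 0.0714 (Nr1i2) and 0.429 (Por) for the other 6.

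The scale of the table bears on these directions. In the anti-CD40 mice the acute phase genes Saa1, Saa2 and Saa3 held 25.4 to 25.9% of all summed FPKM, against 0.0449 to 0.380% in control mice. Summed hepatocyte markers lay between 16178 and 20002 FPKM after anti-CD40 and between 45012 and 76376 FPKM in control mice, with 10 of the 11 markers tested called lower and Apob called higher. Markers that the liver's resident macrophages carry fell (6 of 6), while neutrophil (6 of 6) and monocyte or macrophage markers (7 of 8) rose. Of all genes tested, 21.7% were called lower and 23.5% higher. In bulk tissue, fewer cells of a type and less RNA per cell cannot be told apart. Relative depth, read from the smallest values of 497 low genes, lay between 0.870 and 1.13 of the average mouse. With the Saa genes left out and each mouse rescaled, 77.2% of called genes were higher in place of 52.0%, and 1 of the 10 genes (Nr1i3) was called. Scaled to the hepatocyte markers, 11352 of the 13807 genes tested were called, 96.9% of them higher. Nr1i3 was still lower on that scale, and the other 9 were called higher, as were most genes tested.

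The starts of 3 genes that fell are shown here because the promoters of receptors are themselves sites that receptors can bind. Each line gives the 250 bases before the start site, on the plus strand of GRCm38.p6, from RefSeq. Capitals mark AGGTCA, the hexamer that many nuclear receptors bind, searched on both strands. The Nr1i3 stretch is chr1:171213720-171213969, that of Rxra is chr2:27676951-27677200 and that of Thrb is chr14:17660710-17660959.
Nr1i3: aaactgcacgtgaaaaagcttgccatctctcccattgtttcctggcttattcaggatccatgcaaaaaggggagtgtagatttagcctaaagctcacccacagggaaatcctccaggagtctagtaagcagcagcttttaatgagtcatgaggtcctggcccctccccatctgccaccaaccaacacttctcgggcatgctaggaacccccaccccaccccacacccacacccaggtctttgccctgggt
Rxra: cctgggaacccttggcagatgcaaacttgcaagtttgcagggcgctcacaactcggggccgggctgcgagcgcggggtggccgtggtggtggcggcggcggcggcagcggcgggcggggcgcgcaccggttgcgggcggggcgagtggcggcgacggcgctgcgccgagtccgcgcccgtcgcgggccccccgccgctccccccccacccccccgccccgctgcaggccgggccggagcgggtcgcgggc
Thrb: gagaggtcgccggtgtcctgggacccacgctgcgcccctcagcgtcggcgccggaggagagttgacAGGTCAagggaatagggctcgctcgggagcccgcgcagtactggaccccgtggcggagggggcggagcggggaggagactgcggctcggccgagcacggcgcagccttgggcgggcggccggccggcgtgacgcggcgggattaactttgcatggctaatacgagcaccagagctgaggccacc
The hexamer was found 1 time in the Thrb stretch and not in the other 2. Across 32851 RefSeq start sites, 14% of such stretches held it. Of the 10 genes, 8 had an entry, with 12 start sites in all, and 3 of these 12 stretches held it. They belong to 3 of the 8 genes (Rxra at an alternative start, Nr5a2 and Thrb). The stretches differed in base composition, with 53.2% G and C before Nr1i3, 81.2% before Rxra and 71.6% before Thrb. A match is a description of letters and says nothing of binding in these livers.

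In control mice the order of mean FPKM was Nr1i2, Por, Rxra, Nr1i3, Ppara, Nr3c1, Nr5a2, Thrb, Esr1 and Ahr, from 80.8 ± 24.4 for Nr1i2 to 3.66 ± 0.555 for Ahr (SD, n = 6). Every neighbouring pair in this order overlapped in range, so that no step exceeded the spread between mice taken over the group. Within single mice, Por exceeded Rxra in 2 of 6, Ppara exceeded Nr3c1 in 4 of 6 and Nr5a2 exceeded Thrb in 4 of 6, whereas the gene ranked higher led in 6 of 6 mice for the other neighbours. FPKM divides by transcript length, which reads from the 3′ end do not follow, so this order is one of the deposited values and not of transcript numbers. A length that is the same in every mouse cancels in the ratio of a single gene's FPKM between mice.

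**Figure D1:**
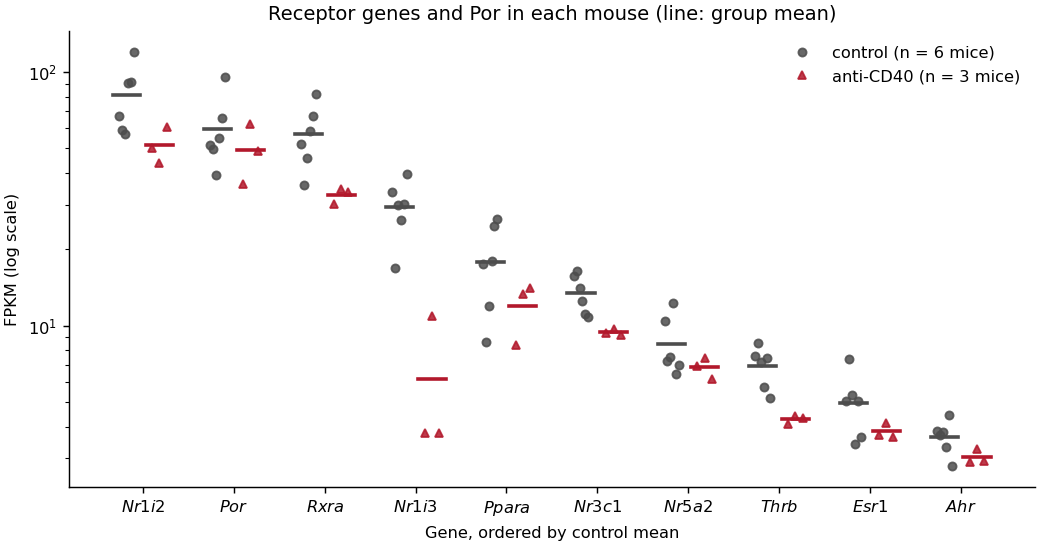
FPKM on a log axis for each of the 10 genes, ordered by control mean, with a circle per control mouse (n = 6), a triangle per anti-CD40 mouse (n = 3) and a line at each group's mean. The triangles of Rxra, Nr1i3, Nr3c1 and Thrb lie below every control circle, and those of the other 6 genes overlap the control range.

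Nr1i3, the constitutive androstane receptor, was at 3.77, 10.9 and 3.77 FPKM in anti-CD40 mice 2, 5 and 9. The 6 control mice ranged from 16.8 to 39.4 FPKM with a median of 30.1. Mice 2 and 9 were nearly equal and mouse 5 stood apart from them, nearest to control mouse 4, the lowest of its group, but the groups did not overlap. The means were 6.16 ± 4.13 (SD, n = 3) and 29.3 ± 7.59 (SD, n = 6). The log2 fold change was -2.38 ± 0.35 (SE), with an adjusted p of 0.00034 in limma and an exact 2-sided permutation p of 0.0238, the smallest that 84 splits of 9 mice can give. Without mouse 5 the log2 fold change was -2.88, and it stayed negative and called in all 21 alternative settings, including the scaling to hepatocyte markers (-1.08). Those markers were Alb, Apoa1, Apoa2, Apob, Apoc3, Apoh, Ttr, Rbp4, Asgr1, Cps1 and Serpina1a. Their log2 fold changes as deposited ran from -2.43 (Alb) to 0.74 (Apob) with a median of -1.10, so the scaled value is not a level per hepatocyte.

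The table lists Nr1i3 at chr1:171213970-171226379 on GRCm38 (mm10), a span that it gives also for Tomm40l and Apoa2. In the GENCODE M21 annotation Nr1i3 lies on the plus strand at chr1:171213970-171220701, Tomm40l overlaps its 3′ part on the minus strand, and Apoa2, the apolipoprotein A-II gene, follows it on the plus strand. How reads were divided among these genes is not given in the sources used here. Apoa2, which is also among the hepatocyte markers, was at 5600 ± 659 FPKM (SD, n = 3) against 25775 ± 4793 FPKM (SD, n = 6), a log2 fold change of -2.18 (limma adjusted p = 1.4e-05). Tomm40l, a mitochondrial import gene, changed by -0.92 on the log2 scale (limma adjusted p = 0.00081). The ratio of Nr1i3 to Apoa2 within a mouse differed by -0.19 on the log2 scale between groups (exact permutation p = 0.571), and that of Nr1i3 to Tomm40l by -1.46 (exact permutation p = 0.0238). The log2 ratio to Apoa2 averaged -9.99 ± 0.80 (SD, n = 3) in the anti-CD40 mice and -9.80 ± 0.24 (SD, n = 6) in control mice. The part of shared reads in the fall of Nr1i3 was not tested.

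**Figure D2:**
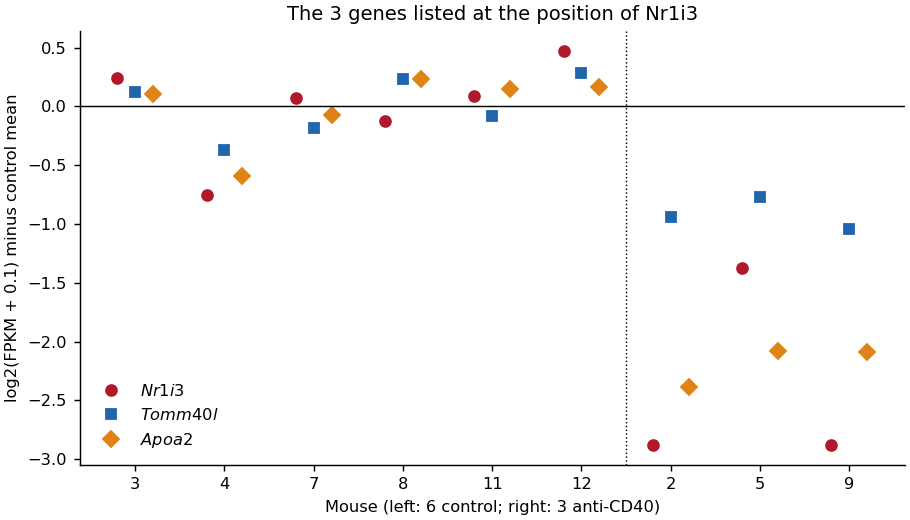
Level of Nr1i3, Tomm40l and Apoa2 in each mouse as log2(FPKM + 0.1) minus the control mean, with 6 control mice to the left of the dotted line and 3 anti-CD40 mice to the right. All 3 genes lie below every control mouse in mice 2, 5 and 9, where Nr1i3 was at -2.88, -1.37 and -2.88 and Apoa2 at -2.39, -2.08 and -2.09.

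A ratio of 2 genes within a mouse does not depend on how that mouse was scaled. Nr1i3 fell against each of the 9 other genes, by 1.63 (against Rxra) to 2.13 (against Ahr) on the log2 scale. The groups did not overlap for 6 of these 9 ratios, and the exact permutation p was at most 0.0476, with the same highest value after Benjamini-Hochberg adjustment over the 9. The ratios to Esr1, Nr3c1 and Thrb overlapped, since mouse 5 exceeded control mouse 4 in each. These ratios were chosen after the data were seen, and they share the 9 mice and the Nr1i3 values.

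Nr1i2, the pregnane X receptor, is a close relative of Nr1i3 with overlapping target genes and lies at chr16:38248349-38294824. Mice 2, 5 and 9 had 50.0, 43.8 and 60.8 FPKM, and the control mice ranged from 57.0 to 119.9 FPKM with a median of 78.8. Mouse 9 exceeded control mice 4 and 7, so the groups overlapped. The log2 fold change was -0.61 ± 0.24 (SE; 95% interval -1.13 to -0.08), with a limma adjusted p of 0.0579, above the threshold. It was called lower in 3 of 21 alternatives, with array weights (adjusted p = 0.0265), without control mouse 4 (0.0328) and without control mouse 7 (0.0353), each by limma.

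Rxra, the common partner of PXR, CAR, PPARα and the thyroid hormone receptors, lies at chr2:27677201-27763319. Its FPKM was 30.2, 34.5 and 33.8 in the anti-CD40 mice and 35.8 to 81.7, with a median of 55.2, in control mice. The anti-CD40 mice lay close together and below every control mouse, although mouse 5 was just under control mouse 4. The means were 32.8 ± 2.32 (SD, n = 3) and 56.9 ± 16.2 (SD, n = 6), and the log2 fold change was -0.74 ± 0.22 (SE; limma adjusted p = 0.0201). The call was lost under quantile normalization (-0.49, adjusted p = 0.0580), without a filter on low values (adjusted p = 0.0627), and with the Saa genes left out (-0.38, adjusted p = 0.145), each by limma. Scaled to hepatocyte markers, Rxra was called higher (0.56, limma adjusted p = 0.00581). Without anti-CD40 mouse 2, 5 or 9 the fold change stayed near its size, at -0.69, -0.78 and -0.77, with limma adjusted p of 0.0802, 0.0508 and 0.0531.

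Thrb, the thyroid hormone receptor beta, is the main receptor for thyroid hormone in liver and lies at chr14:17660960-18038088. Mice 2, 5 and 9 had 4.10, 4.40 and 4.31 FPKM, and the control mice ranged from 5.17 to 8.52 FPKM with a median of 7.33. The anti-CD40 values were tightly grouped and lay below all 6 control values. The log2 fold change was -0.67 ± 0.16 (SE; limma adjusted p = 0.00658). Leaving out any 1 mouse kept the call, with changes between -0.75 and -0.61. Thra, the other thyroid hormone receptor gene, was at 1.13, 1.60 and 1.69 FPKM against a control range of 1.79 to 2.93 FPKM, and its log2 fold change was -0.69 (limma adjusted p = 0.00934). Its call was lost without anti-CD40 mouse 2, with the Saa genes left out (-0.35, limma adjusted p = 0.147) and with the GC trend of each mouse removed (-0.47, 0.101).

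Nr3c1, the glucocorticoid receptor on chromosome 18, was at 9.32, 9.73 and 9.21 FPKM in the anti-CD40 mice. Control mice ranged from 10.8 to 16.4 FPKM with a median of 13.3. All anti-CD40 values lay below all control values, the nearest being mouse 5 and control mouse 12. The log2 fold change was -0.49 ± 0.15 (SE; limma adjusted p = 0.0230). With any 1 of the 3 anti-CD40 mice left out, the fold change was nearly the same, at -0.48 (mouse 2), -0.51 (mouse 5) and -0.47 (mouse 9), while the limma adjusted p was 0.0731, 0.0552 and 0.0746.

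The remaining 5 genes overlapped between groups and were not called, with limma adjusted p between 0.206 (Ahr) and 0.456 (Por). They lie at chr15:85735564-85806851 (Ppara), chr1:136843584-136960448 (Nr5a2), chr10:4611989-5005633 (Esr1), chr12:35497979-35534989 (Ahr) and chr5:135689145-135735326 (Por). Ppara, the fatty acid receptor, was at 8.42, 13.3 and 14.1 FPKM against 8.60 to 26.4 FPKM in control mice, and its interval (-1.27 to 0.24) was the widest of these 5. Nr5a2 was at 6.91, 7.47 and 6.14 FPKM against 6.44 to 12.2 FPKM. Mouse 5 carried pancreatic acinar transcripts at a summed 1142 FPKM, against 28.0 and 34.0 FPKM in mice 2 and 9 and 71.2 to 196 FPKM in control mice, and Nr5a2 is also a gene of acinar cells. Outside mouse 5 most of each sum was Cela1 alone. That gene was at 27.0 and 29.3 FPKM in mice 2 and 9, 69.3 to 188 FPKM in control mice and 315 FPKM in mouse 5. Without mouse 5 the log2 fold change of Nr5a2 was -0.34, against -0.27 with it (95% interval -0.73 to 0.18).

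Esr1 was at 3.72, 4.12 and 3.65 FPKM against 3.41 to 7.38 FPKM, with a log2 fold change of -0.32 (95% interval -0.81 to 0.16). Ahr was at 2.91, 3.28 and 2.94 FPKM against 2.80 to 4.46 FPKM, with a log2 fold change of -0.25 (95% interval -0.58 to 0.09). Por, the P450 reductase, was at 36.1, 62.4 and 48.9 FPKM against 39.3 to 95.3 FPKM, with a log2 fold change of -0.25 (95% interval -0.83 to 0.32). In each of these genes at least 1 anti-CD40 mouse lay within the control range, and the intervals take in both falls as large as that of Nr3c1 and small rises. Ahr was called lower under quantile normalization (-0.42, limma adjusted p = 0.0329).

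**Figure D3:**
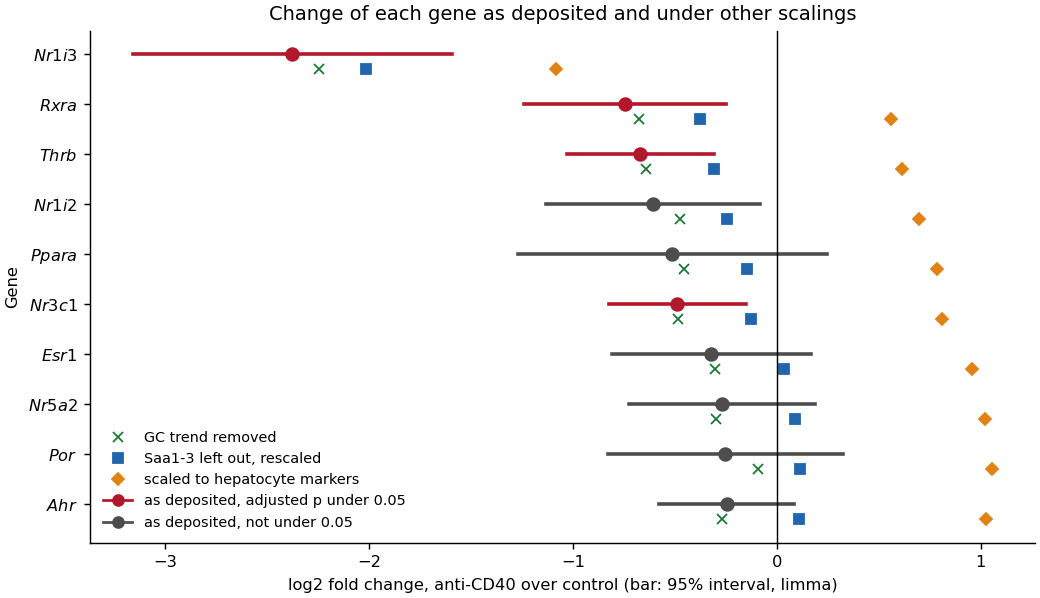
Log2 fold change of each gene, anti-CD40 over control, with circles and 95% intervals from limma on the deposited values (red where called) and further marks for 3 other scalings. Nr1i3 stays below 0 on every scale, whereas scaling to hepatocyte markers moves the other 9 genes above 0.

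Control mice differed among themselves in a way that split the genes. Mice 8, 11 and 12 were the 3 highest controls for Nr1i2, Ppara, Rxra and Por and the 3 lowest for Nr3c1. Over the 6 control mice the Pearson correlation was 0.97 between Ppara and Rxra, 0.93 between Nr1i2 and Rxra, 0.93 between Esr1 and Thrb, and -0.91 between Rxra and Nr3c1. These are descriptions over 6 mice that share a scale, with no test. Nr1i2, Ppara, Rxra and Por had longest transcripts of 51.5 to 58.4% G and C, and Ahr, Nr5a2, Esr1, Nr3c1 and Thrb had 42.2 to 46.2%, around a median of 49.6% over genes tested. Nr1i3 had 53.0%. Across the 9813 genes that averaged 1 FPKM or more and had a GC value, the rank correlation between a mouse's deviation from its group and GC content ranged from -0.32 (control mouse 4) to 0.40 (control mouse 12). It was -0.23 and -0.13 in control mice 3 and 7, 0.20 in mouse 8 and 0.014 in mouse 11, so mouse 11 shared the ranking of mice 8 and 12 with almost no trend of its own. The part of base composition in these differences was not tested. For removal, each mouse's GC trend was read from its deviation from the mean of all mice rather than of its group. The removal therefore also takes out any GC trend between the groups. With it the same 4 genes were called. Their log2 fold changes were -2.25 for Nr1i3, -0.67 for Rxra, -0.64 for Thrb and -0.49 for Nr3c1, while Por moved to -0.09.

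**Figure D4:**
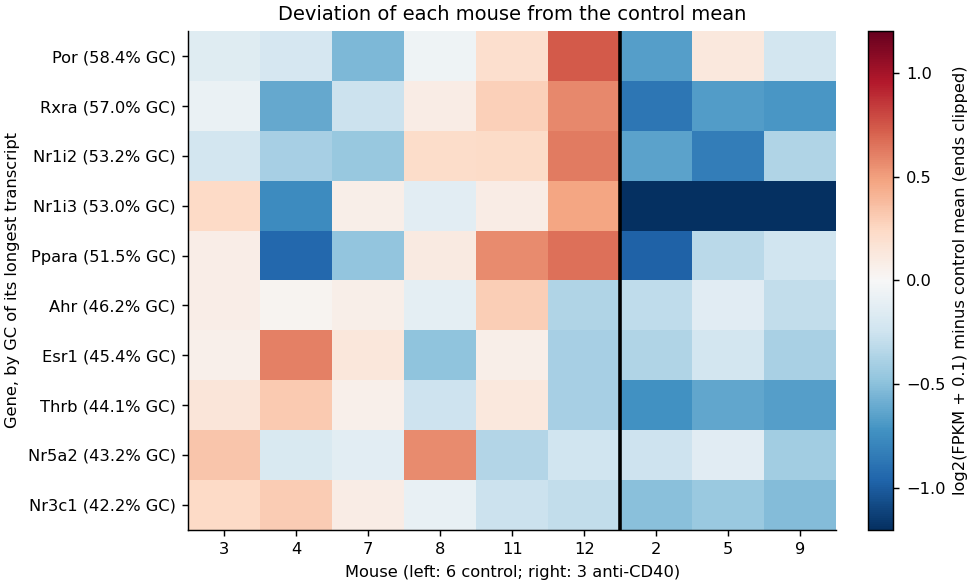
Deviation of each mouse from the control mean, as log2(FPKM + 0.1), for the 10 genes ordered by the GC content of their longest transcript, with control mice left of the line and anti-CD40 mice right of it and colors clipped at the ends of the scale. Mouse 12 is red for the 5 genes above 51% GC and blue for the 5 below 47%, and Nr1i3 is past the end of the scale in all 3 anti-CD40 mice.

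Beyond these genes, 31 of 41 other nuclear receptors passed the filter on low values, of which 13 were called lower and 1 higher, with a median of -0.37. With the 8 receptors above included, 18 of 39 tested receptors (46.2%) were called, close to the 45.1% of all genes. Nr1d1 (REV-ERBα), a repressor of the circadian clock, was at 0.740, 1.61 and 2.53 FPKM against 3.78 to 11.4 FPKM, a log2 fold change of -2.27 (limma adjusted p = 0.00102). Its close relative Nr1d2 changed by -1.50 (limma adjusted p = 0.00032), and by -0.20 (adjusted p = 0.241) when scaled to hepatocyte markers. Nr1h5 fell by 1.98 from a low level (0.742 ± 0.218 FPKM, SD, n = 6), and Nr6a1 fell by 1.21. Vdr, the vitamin D receptor, was the receptor called higher, at 0.364 ± 0.0741 FPKM (SD, n = 3) against 0.01 to 0.0706 FPKM, where 0.01 is the floor of the table and was reached by 2 control mice. Vdr is known from macrophages and stellate cells rather than hepatocytes. Monocyte and macrophage markers summed to 321 to 438 FPKM in the anti-CD40 mice against 41.5 to 75.2 FPKM in control mice. The sums of resident macrophage markers (39.0 to 50.7 against 285 to 456 FPKM) and stellate cell markers (222 to 255 against 268 to 400 FPKM) were lower. The part of these cells in the rise of Vdr was not tested.

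Among 14 partners with which Rxra forms dimers or that share its role, 3 were called lower and 1 higher, or 28.6%, a smaller share than the 45.1% of all genes. Nr1h3, the oxysterol receptor LXRα, was at 81.1, 78.9 and 80.1 FPKM against 117 to 150 FPKM, a log2 fold change of -0.73 (limma adjusted p = 0.00027), and Rxrg and Thra were the other 2 lower genes. Scaled to hepatocyte markers, Nr1h3, Rxrg and Thra were above control, at 0.57, 0.53 and 0.55. Of 15 coregulators, 26.7% were called. Ppargc1b was called lower at -1.11, while Ep300 (0.75), Ncoa6 (0.52) and Ncoa3 (0.42) were called higher.

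Genes that PXR and CAR are known to induce were mostly lower. Of 19 tested, 12 were called lower and 2 higher (73.7%, against 45.1% of all genes), and their median log2 fold change was -2.25, against 0.0056 over all genes tested. Cyp2c37 was at 2.93, 4.86 and 5.53 FPKM against 141 to 227 FPKM, and its log2 fold change was -5.35 (limma adjusted p = 2.0e-07). Cyp2c50 fell by 5.14 on the same scale, at 12.4 to 21.8 FPKM against 464 to 766 FPKM. Both encode P450 enzymes of the Cyp2c cluster, and in both each anti-CD40 mouse lay far below each control mouse. The classic CAR target Cyp2b10 was at 3.80, 4.62 and 9.23 FPKM against 18.6 to 39.6 FPKM, a log2 fold change of -2.22. The PXR target Cyp3a11 was at 158 to 273 FPKM against 543 to 1554 FPKM, a log2 fold change of -2.25. These 2 genes are named for their standing as targets and were picked after their values were seen.

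Ugt1a1, which conjugates bilirubin, was at 17.7, 27.0 and 0.01 FPKM against 27.4 to 147 FPKM. Its position is given to 9 genes of the table, mouse 9 sat at the floor, and the log2 fold change without mouse 9 was -1.63 in place of -4.18, no longer called. The call was lost also without control mouse 3, 7, 8, 11 or 12, with log2 fold changes of -4.35 to -3.95. The 2 genes called higher were Gsta1, a glutathione transferase, at 3.49 and Gadd45b, a stress gene that CAR induces and inflammation also induces, at 1.51. Gsta1 was at 3.78 to 10.9 FPKM against 0.01 to 1.52 FPKM.

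The Ahr targets did not move as 1 group. Of 8 tested, 1 was called lower and 3 higher (50.0%, against 45.1% of all genes). Cyp1a2 fell, from 117 to 412 FPKM in control mice to 15.4, 16.9 and 17.7 FPKM, a log2 fold change of -3.98 (limma adjusted p = 6.6e-06). Cyp1a2 is a P450 of pericentral hepatocytes with high constitutive expression. Cyp1b1, a P450 of cells other than hepatocytes, was at 0.585 to 1.06 FPKM against 0.0107 to 0.157 FPKM, a log2 fold change of 2.47 (limma adjusted p = 0.00017). Nfe2l2 (0.80) and Tiparp (0.69) were also called higher, and in both the groups overlapped. Of the 5 tested proteins that bind Ahr, only Hsp90aa1 was called, at 0.50 higher with overlapping groups, a call that 10 of 21 alternatives lost.

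Of 25 PPARα targets tested, 7 were called lower and 3 higher (40.0%, against 45.1% of all genes), with a median of -0.31. Acot3 (-2.60), Acaa1b (-2.19) and Fabp1 (-2.05), which handle fatty acids in peroxisomes and the cytosol, fell, with no overlap between groups. Fgf21, a fasting hormone made in liver, rose to 8.16 to 11.6 FPKM from 0.0651 to 3.89 FPKM, a log2 fold change of 3.62 (limma adjusted p = 0.00688). Pdk4 (1.95), a brake on glucose oxidation, and Plin2 (1.29), a lipid droplet coat protein, were called higher as well. The groups overlapped for Pdk4. The 10 called targets moved in both directions, and Ppara itself was not called.

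Of 14 glucocorticoid receptor targets, 4 were called lower and 2 higher (42.9%, against 45.1% of all genes), with a median of 0.06. Tsc22d3 (-1.26), Pck1 (-1.25) and Tdo2 (-0.99) fell, the first 2 with overlapping groups, and the metallothioneins Mt1 (1.70) and Mt2 (1.88) rose, with Mt2 at 11970 to 15399 FPKM against 2530 to 7293 FPKM. Metallothioneins respond to zinc and interleukin 6 as well as to glucocorticoids. All 5 called LRH-1 targets of 8 were lower (62.5% called, against 21.7% of all genes called lower), among them the sterol transporters Abcg8 (-2.37) and Abcg5 (-1.98) and Cyp7a1 (-1.97), the rate-limiting enzyme of bile acid synthesis. Abcg5 and Abcg8 share a position in the table. Of 6 thyroid hormone receptor targets tested, 3 were called, all lower, against 21.7% of all genes. Thrsp, a lipogenic gene, fell by 5.02 to 9.06, 13.8 and 13.9 FPKM from 233 to 999 FPKM, and Me1 (-1.78) and Cyp7a1, which is on both lists, fell too.

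Por itself was not called, but 6 of 9 other electron carriers and Por clients were called lower and 1 higher (77.8%, against 45.1% of all genes). Cyb5a (-1.72), the microsomal cytochrome b5 that also feeds electrons to P450 enzymes, its reductase Cyb5r3 (-1.96) and Cyb5b (-1.92), the cytochrome b5 of the outer mitochondrial membrane, fell with no overlap between groups. Cyb5a was at 768, 780 and 962 FPKM against 2402 to 3044 FPKM. Hmox1, heme oxygenase 1, which takes its electrons from Por, was at 21.8 to 27.6 FPKM against 7.80 to 15.7 FPKM, a log2 fold change of 1.35 (limma adjusted p = 0.00035). The calls on all 77 tested targets of the receptors together were 31 lower and 10 higher (53.2%), beside 45.1% of all genes called, 21.7% lower and 23.5% higher. Hepatocyte markers moved in the same direction as most of these genes, with a median of -1.10, and their part in the results was not tested.

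Several of these calls lay close to the threshold and were lost in fits on 8 mice, mostly with little change in the fold. Rxrg, Ppargc1b, Ncoa3 and Hsp90aa1 lost their calls whichever of the 3 anti-CD40 mice was left out, with adjusted p up to 0.0889, 0.116, 0.101 and 0.149 by limma. Their log2 fold changes in those fits were -0.79 to -0.71 for Rxrg, -1.26 to -1.01 for Ppargc1b, 0.40 to 0.44 for Ncoa3 and 0.46 to 0.56 for Hsp90aa1. Without anti-CD40 mouse 2, the calls were lost for Ncoa6 (0.42, limma adjusted p = 0.0532), Thra (-0.53, 0.0572), Tsc22d3 (-1.13, 0.0566), Pck1 (-1.04, 0.0782), Nfe2l2 (0.67, 0.116), Pdk4 (1.98, 0.0559) and Tiparp (0.73, 0.0748). Without mouse 5 they were lost for Nfe2l2 (0.79, 0.0769) and Tiparp (0.51, 0.155), and without mouse 9 for Pdk4 (1.75, 0.0750). Tiparp was lost without 4 of the control mice as well. With the GC trend removed, Thra (-0.47, limma adjusted p = 0.101), Rxrg (-0.60, 0.0796) and Hsp90aa1 (0.51, 0.0671) were no longer called.

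**Figure D5:**
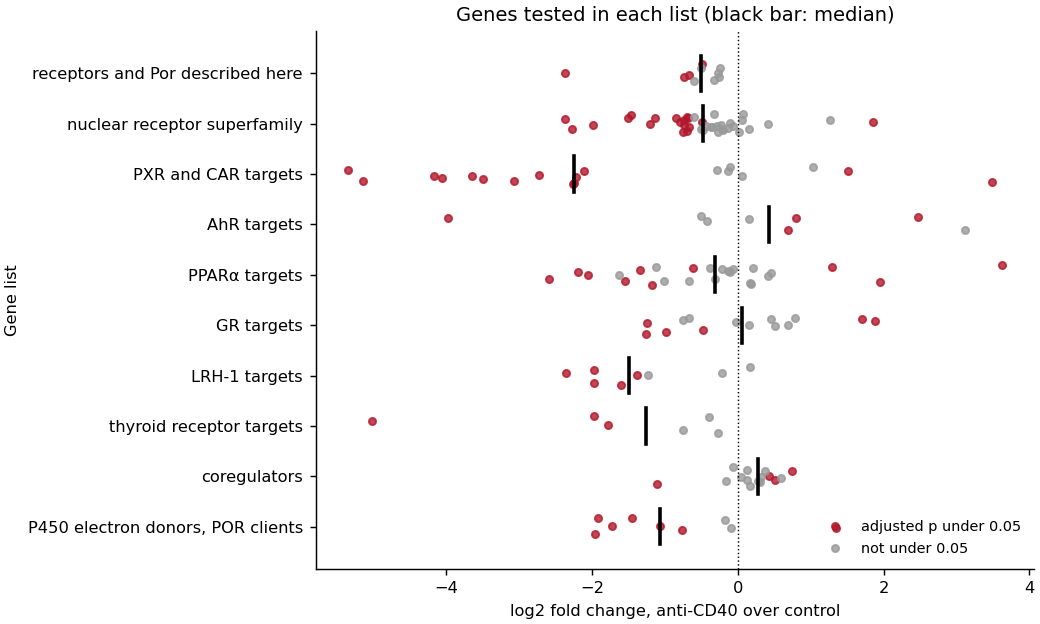
Log2 fold change of every gene tested in each list, anti-CD40 over control, with a black bar at the list's median and red points where limma called the gene. Among the 10 lists plotted, the PXR and CAR targets have the lowest median, -2.25. All called genes are lower in the receptors and Por described here, the LRH-1 targets and the thyroid hormone receptor targets. The other lists plotted hold called genes on both sides of 0.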

How the data were processed

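RNA from the livers of 3 anti-CD40 and 6 control mice was read with the QuantSeq 3′ FWD kit on an Illumina sequencer. The authors aligned reads with STAR to mm10 and computed FPKM with Cufflinks, and the deposited FPKM table gives no value below 0.01 and marks failed estimates as FAIL. The annotation and the use of strand in counting are not given in the sources used here. Read totals are unknown, so no counting interval was computed. The submitters' processing notes also name Cuffdiff, and no result of it was used. Mice were grouped by their labels.

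The 15 genes with a failed estimate were left out, as were genes with a mean FPKM under 0.1. The remaining 13807 genes were tested as log2(FPKM + 0.1) with limma 3.58.1 in R 4.3.3 (lmFit, eBayes with trend, treatment as the only factor, 2-sided, Benjamini-Hochberg adjustment over all genes tested), and fold changes are on that scale, which understates changes of low genes. Single values were tested with an exact 2-sided permutation test over 84 splits. The p-values set the difference between the groups against the spread between these mice. Summaries and correlations used Python 3.11.15 with numpy 2.4.6, pandas 2.3.3 and scipy 1.17.1, and matplotlib 3.10.9 drew the figures. The scripts were tested on simulated data. Positions are those of the table, counted from 1, with GENCODE M21 for neighbours and GC content (96.4% of genes tested had a value). In the table, 5579 genes (22.9%) share a position with another gene.

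The members and gene lists were chosen with earlier results of these data known, the lists from general knowledge. From each list the 3 called genes with the largest rise and the 3 with the largest fall are named (5 each way for nuclear receptors). Tf and Ly6g are not analysed here, and a gene that the naming rule took is not reported here. The alternatives were a pseudocount of 1 or 0.01, a filter at 1 FPKM or none, quantile and median of ratios normalization, leaving out Saa1, Saa2 and Saa3 with rescaling, scaling to hepatocyte markers, other eBayes settings, array weights and leaving out each mouse. Removal of the GC trend and the ratios to Nr1i3 were chosen after the data were seen.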

Additional observations from a re-analysis of the deposited data

Results flagged for a closer look

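Among 64 genes or sums examined in the 6 control mice, 6 had 1 mouse far from the others. The gap to the nearest mouse was compared with the whole range by Dixon's test at the 95% level. A rate of 1 in 20 gives about 3.2, but it assumes normal and independent values. FPKM were tested without logs, the genes and sums share the same mice, and in all 6 the mouse apart was the highest. None of the 8 nuclear receptors, Ahr or Por was among these 6. Abcg8 had a ratio of 0.716, with mouse 12 at 38.9 FPKM and the next at 24.0. Hmox1 had 0.696, with mouse 4 at 15.7 FPKM and the next at 10.2. Thrsp had 0.655, with mouse 8 at 999 FPKM and the next at 497. Pdk4 had 0.654, with mouse 11 at 2.07 FPKM and the next at 0.805. Mt2 had 0.652, with mouse 12 at 7293 FPKM and the next at 4189. Ppargc1b had 0.629, with mouse 12 at 7.16 FPKM and the next at 3.70.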

How the results depend on the processing

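No paired analysis was possible because the groups share no mouse numbers. Of the 10 genes, 4 were called as deposited, 1 with the Saa genes left out, 10 with scaling to hepatocyte markers (9 higher, 1 lower) and 2 to 5 with 1 mouse left out. The fewest, 2, came without anti-CD40 mouse 2, 5 or 9. Over all genes tested, 6230 genes were called as deposited (4875 to 6808 with 1 mouse left out) and 11352 with hepatocyte scaling. Of the 136 other pathway genes tested, 67 were called as deposited (49.3%, against 45.1% of all genes), 53 to 77 with 1 mouse left out and 103 with hepatocyte scaling. The Saa and hepatocyte scalings moved the median of all genes by 0.34 and 1.22. Under hepatocyte scaling the sign turned for Nr1i2 (0.70), Ppara (0.79), Rxra (0.56), Ahr (1.03), Nr5a2 (1.02), Esr1 (0.96), Nr3c1 (0.81), Thrb (0.61), Por (1.05), Nr1h3 (0.57), Nr6a1 (0.020), Pck1 (0.054), Ppargc1b (0.14), Rxrg (0.53), Tdo2 (0.32), Thra (0.55) and Tsc22d3 (0.050). Nr1d2 (-0.20), Cyp7a1 (-0.69), Fabp1 (-0.75) and Me1 (-0.47) kept their sign there but lost their calls (limma adjusted p = 0.241, 0.183, 0.0508 and 0.0562). Without the Saa genes the sign turned for Ahr (0.11), Nr5a2 (0.091), Esr1 (0.034) and Por (0.11), and under quantile normalization for Por (0.038). Relative to the median of all genes, the 10 values ran from -2.31 (Nr1i3) to -0.17 (Por) under hepatocyte scaling. As deposited they ran from -2.38 (Nr1i3) to -0.25 (Ahr). A single factor per mouse moves each gene and that median together, so this near-equality was fixed by construction and is no separate evidence. The 2 scalings change the level of every gene by construction, and other causes were not tested. With the Saa genes left out, Thrb (-0.31, limma adjusted p = 0.189), Rxra (-0.38, 0.145) and Nr3c1 (-0.13, 0.559) lost their calls. The list counts that follow stand beside 4875 to 11352 genes called in the whole table over the same alternatives. The counts called by list were 18 for nuclear receptors (9 to 33 over the alternatives), 4 for Rxra partners (2 to 13), 4 for coregulators (1 to 14), 4 for Ahr targets (2 to 6), 1 for Ahr partners (0 to 5), 10 for PPARα targets (7 to 17), 6 for glucocorticoid receptor targets (3, without anti-CD40 mouse 2, to 8) and 3 for thyroid hormone receptor targets (up to 6, without control mouse 4). Low values limit Vdr, Nr1h5 and Cyp1b1, which the filter at a mean FPKM of 1 removed.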

Other observations

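For each of the 10 genes, the gene with the closest pattern over the 9 mice was sought among 10145 genes averaging 1 FPKM or more, by the Pearson correlation of log2(FPKM + 0.1). These correlations cover both groups and are descriptions over 9 mice that share a scale. Each is the highest of 10145, a search that by itself gives high values, and none was tested. Nr1i3 was nearest to Acbd4 (r = 0.99), an acyl-CoA binding protein at 9.09, 17.3 and 9.77 FPKM in anti-CD40 mice 2, 5 and 9, with the same higher value in mouse 5, against 25.9 to 50.5 FPKM in control mice. Ppara was nearest to Il6ra (r = 0.99), the interleukin 6 receptor, and Thrb to Irs1 (r = 0.99), an insulin receptor substrate with a log2 fold change of -1.14. Nr3c1 was nearest to the sulfotransferase Sult1d1 (r = 0.99), which changed by -1.27, and Rxra to Loh12cr1 (r = 0.99). For Nr1i2 the gene was Pgp (r = 0.98), for Esr1 Umad1 (r = 0.98), for Ahr Mettl3 (r = 0.95), for Por Tubgcp2 (r = 0.95) and for Nr5a2 Raet1d (r = 0.94). The position of Raet1d is given to 7 genes, that of Mettl3 to 3 and that of Tubgcp2 to 2.

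The marker lists of other cells gave these counts, beside 23.5% of all genes called higher and 21.7% called lower. Of 8 T and NK cell markers 7 were called higher, as were 4 of 4 B cell markers tested and 3 of 6 cholangiocyte markers. Endothelial markers were split, with 2 higher and 3 lower of 7, and stellate cell markers likewise, with 3 higher and 3 lower of 7. Of 10 pancreatic acinar markers 1 was called higher.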
